A study of Mus musculus with 6 samples.

Results

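The TRIM (tripartite motif) family was described in RNA-seq of mouse bone marrow-derived macrophages (BMDMs) kept with bone marrow stem cells (BMSCs). Members were all genes of the deposited table whose symbol is Trim followed by a number and at most 1 letter, which gave 68 of 52550 genes. The macrophages came from MSR1 KO or MSR1 WT mice of the strain C57BL/6, were grown for 7 days in 25 ng/ml M-CSF, the growth factor that turns bone marrow cells into macrophages, and were then kept with BMSCs across a transwell membrane for 48 h. MSR1 is a macrophage scavenger receptor, and the comparison asked how its loss alters macrophages in this co-culture. Each group held 3 libraries, and both groups received M-CSF and BMSCs, so macrophages without BMSCs are not part of the comparison. The labels do not say which cells lost Msr1 in the KO mice, how many mice gave each library or where the BMSCs came from.

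Total counts per library ranged from 36143518 to 47417448. Msr1 was counted 2118, 1825 and 2000 times in MSR1 KO and 7543, 9163 and 9219 times in MSR1 WT, which matched the labels (log2 fold change -2.02, edgeR adjusted p = 0.00124). Of 10 macrophage markers, 7 had a 95% interval within 1.5-fold, Fcgr1 rose and Mrc1 fell, and their summed level was 23930 to 25280 CPM, the counts scaled to a common library size, in MSR1 KO and 24670 to 27550 in MSR1 WT. Of 11 stromal markers, Pdgfra, Pdgfrb and Cxcl12 fell, Thy1 was higher without an adjusted p under 0.05 (log2 fold change 1.31, edgeR adjusted p = 0.0907), and the summed level was 1212 to 1586 CPM in MSR1 KO and 1567 to 2023 in MSR1 WT. The 8 neutrophil markers summed to 636 to 1039 CPM in MSR1 KO and 419 to 799 in MSR1 WT, and B cell markers to at most 22.9 CPM in any library. Of 6 T and NK cell markers Klrb1c rose (log2 fold change 1.39), and Ncr1 was higher with overlapping groups (0.71, edgeR adjusted p = 0.392). The sums of 106 to 152 CPM in MSR1 KO and 92.7 to 146 in MSR1 WT were mostly Cd4. Its means were 114 CPM in MSR1 KO and 116 in MSR1 WT. Of 5 plasmacytoid dendritic cell markers, Bst2, also an interferon-response gene, rose, and Ccr9 was higher without passing that threshold, with 169, 143 and 142 counts in MSR1 KO and 20, 40 and 90 in MSR1 WT (log2 fold change 1.69, edgeR adjusted p = 0.101). Siglech had at most 31 counts in any library, Tcf4 and Irf8 had an interval within 1.5-fold, and the 5 summed to 836 to 882 CPM in MSR1 KO and 595 to 731 in MSR1 WT. The part of these cells in the TRIM results was not tested. In bulk RNA, fewer cells of a type and less RNA per cell cannot be told apart. The sex-linked genes Xist, Ddx3y, Eif2s3y, Kdm5d and Uty were all counted in every library. Xist was lower in every MSR1 KO library than in any MSR1 WT library (log2 fold change -0.50). The others, on the Y chromosome, were higher in every MSR1 KO library (0.26 to 0.32). None of these genes had an adjusted p under 0.05 (edgeR), and their part in the TRIM results was not tested.

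TRIM proteins share a RING domain, which carries the ubiquitin ligase activity, a B-box and a coiled coil, and differ mainly in the domain at their C-terminal end. Many carry a PRY-SPRY domain there, which binds the target. In macrophages some TRIM genes are induced by interferon and their proteins act on viral RNA and DNA sensing, while others serve transcription, membrane traffic or development in most cells. Interferons reach their targets through STAT and IRF proteins, which bind the interferon-stimulated response element (ISRE) near the start of the gene.

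The ISRE core was searched for, as GAAA, any 2 bases and GAAA, on both strands of the RefSeq promoters of GRCm38.p6, which run from 250 bases before to 50 after each start site. Promoters were matched for 53 of the 68 members, and 9 of these (17.0%) held the core, against 3.99% of all 27025 genes and 3.44% of all 32851 windows. The 9 were Trim21, Trim26, Trim5, Trim12a, Trim12c, Trim30a, Trim30d, Trim34a and, at an alternative start site, Trim2. Their sequences around the core are shown because 6 of the 10 members that rose or were DEGs in that direction, as described further on, are among them, with the core in capitals and each sequence on the strand of its gene.
Trim30a, chr7:104465195-104465254, minus strand: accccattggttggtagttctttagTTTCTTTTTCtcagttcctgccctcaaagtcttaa
Trim30d, chr7:104507856-104507915, minus strand: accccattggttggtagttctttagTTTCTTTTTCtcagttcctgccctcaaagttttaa
Trim5, chr7:104288121-104288180, minus strand: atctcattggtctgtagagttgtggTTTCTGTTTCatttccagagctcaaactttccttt
Trim12c, chr7:104353350-104353409, minus strand: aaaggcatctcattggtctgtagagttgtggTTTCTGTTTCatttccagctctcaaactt
Trim12a, chr7:104315466-104315495, minus strand: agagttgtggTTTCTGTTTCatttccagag
Trim34a, chr7:104244457-104244486, plus strand: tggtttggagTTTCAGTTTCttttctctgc
Trim21, chr7:102565447-102565476, minus strand: ctgagagGAAACTGAAAGTGAAAtttggac
Trim26, chr17:36836964-36837023, plus strand: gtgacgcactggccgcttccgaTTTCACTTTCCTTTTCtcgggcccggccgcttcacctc
Trim2, chr3:84212791-84212820, minus strand: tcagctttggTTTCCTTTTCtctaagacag

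The Trim30a and Trim30d stretches differed at 1 of 60 positions. The Trim5 stretch shared an unbroken run of 30 bases with that of Trim12a and of 43 with that of Trim12c. The paralogs within each of these sets are thus not independent cases of the motif. Trim21 and Trim26 each held 2 overlapping matches. The core began 36 bases before the start site in Trim30a, 41 in Trim30d, 49 in Trim5 and 29 in Trim12c, and a second Trim30a start site held it 3 bases past the start. By contrast, in Trim34a, Trim12a and Trim21 it lay just past the start site. No core was found in these windows for Trim30b, Trim30c, Trim34b, Trim6, Trim25 or Trim56.

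**Figure D1:**
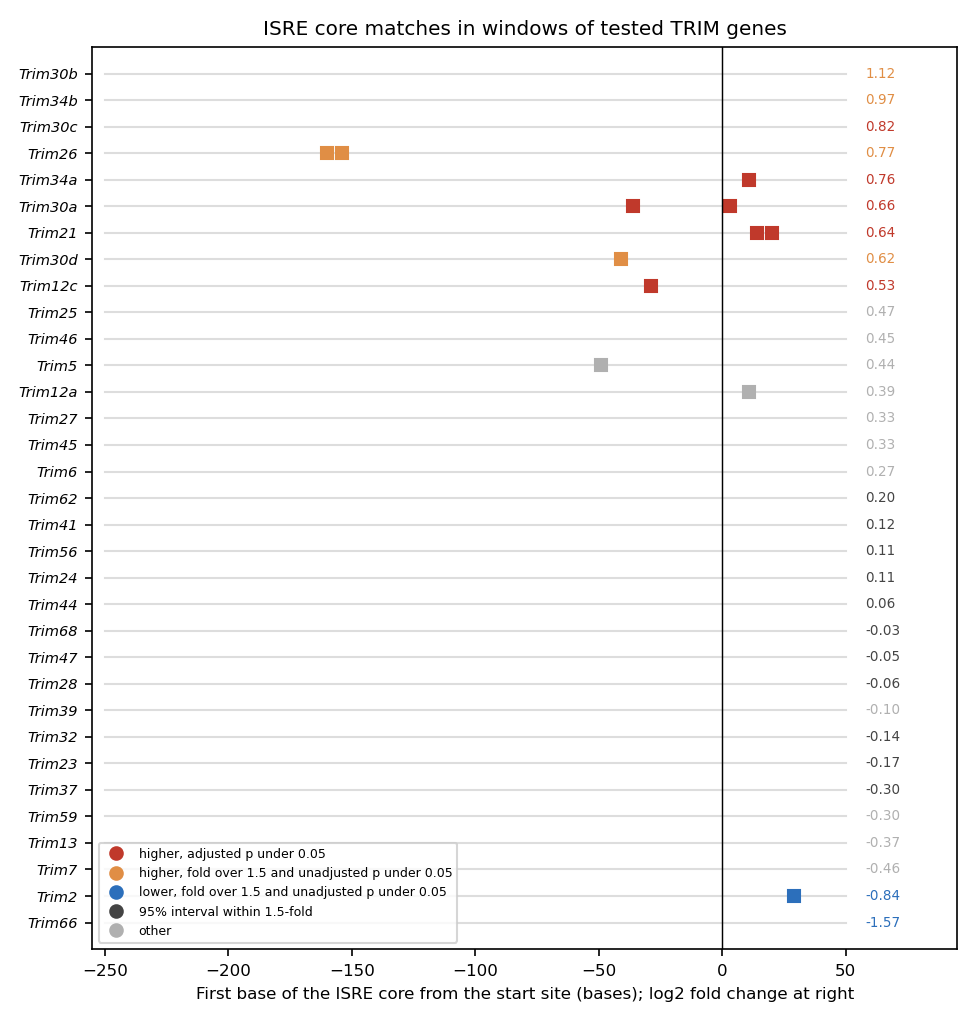
First base of each ISRE core match, in bases from the start site, for the 33 tested TRIM genes with a RefSeq promoter (horizontal grey lines span the searched window), with the log2 fold change of MSR1 KO over MSR1 WT at the right. The 9 genes with a match lie in the upper part of the order, with log2 fold changes of 0.39 to 0.77, except Trim2 at -0.84.

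Of the 68 members, 53 had a count in at least 1 library and 43 passed the filter on low counts and were tested, that is, had enough counts in at least 3 libraries to enter the edgeR quasi-likelihood test. Fold changes are MSR1 KO over MSR1 WT throughout, and adjusted p-values are Benjamini-Hochberg values over the 16402 genes that were tested. At an adjusted p under 0.05, 6 of the 43 members rose, namely Trim14, Trim21, Trim12c, Trim30a, Trim30c and Trim34a, a share of 14.0% against 2.25% of all tested genes called in that direction. None fell at that threshold, where 2.66% of all tested genes did, although 4 members were lower at an unadjusted p under 0.05 and DESeq2 called Trim2 and Trim35. By the study's own definition of a DEG, a fold change over 1.5 with an unadjusted p under 0.05, 8 members were higher (18.6%, all tested genes 3.59%) and 2 were lower (4.65%, all tested genes 5.05%). Of the 43, 17 (39.5%, all tested genes 50.0%) were held within 1.5-fold, that is, had a 95% interval that did not reach a 1.5-fold change in either direction. The median log2 fold change over the tested members was 0.11, and over all tested genes -0.002.

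**Figure D2:**
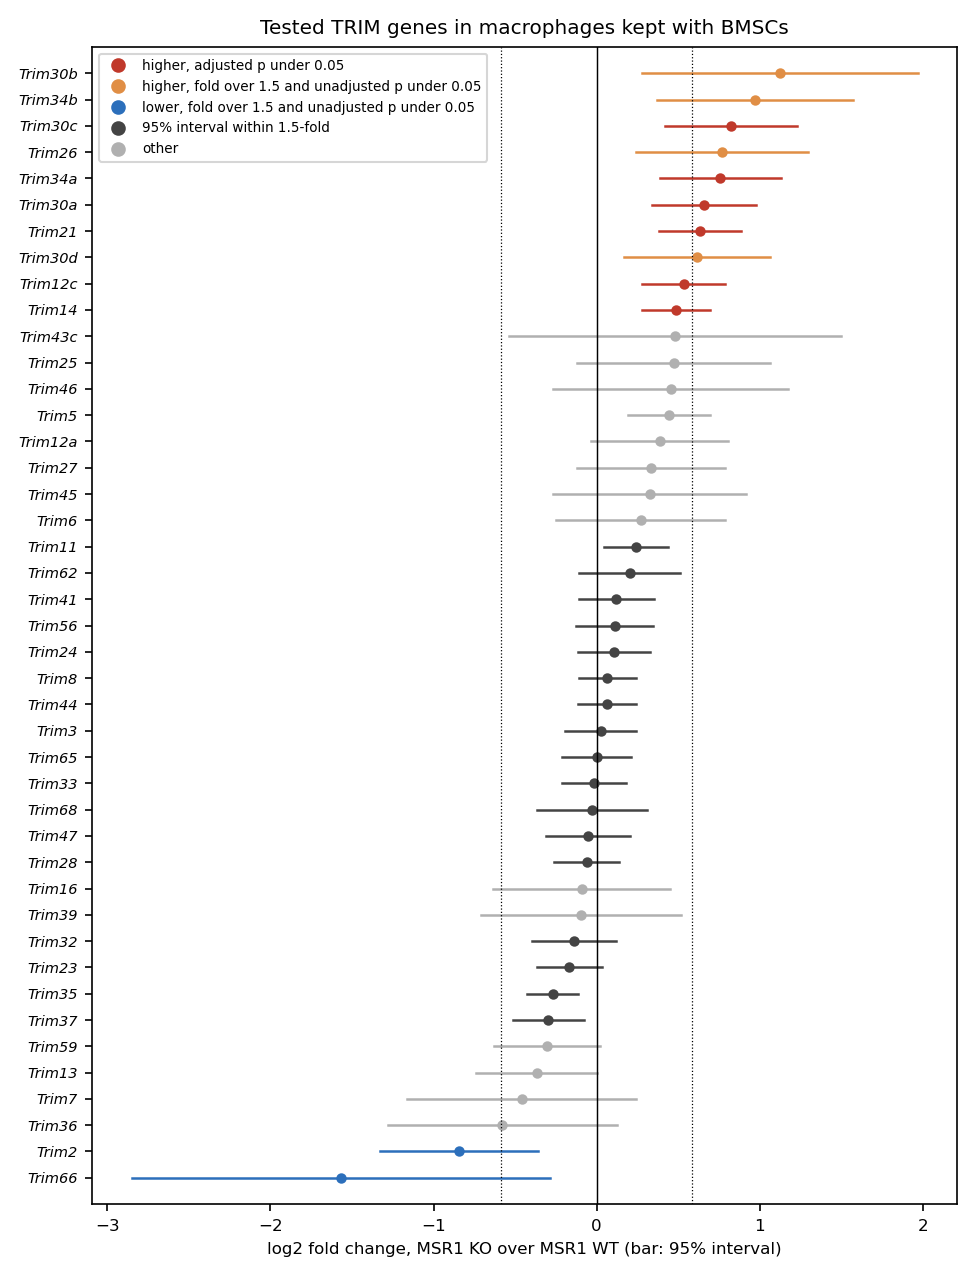
log2 fold change of MSR1 KO over MSR1 WT for the 43 tested TRIM genes, in order of size, with 95% intervals from edgeR (n = 3 per group) and dotted lines at 1.5-fold. The 6 genes with an adjusted p under 0.05 lie between 0.49 and 0.82, and the 17 genes whose interval stays within 1.5-fold lie between -0.30 and 0.24.

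The members that rose were all among those known as interferon-inducible. A list of 17 such members, of which 15 were tested, was written from general knowledge. It was written with earlier results of these data known, so the split below is not independent of them. All 15 had a positive log2 fold change, 6 rose at an adjusted p under 0.05, 8 were DEGs, and in 10 all MSR1 KO libraries lay above all MSR1 WT libraries (12.1% of all tested genes did). Their median log2 fold change was 0.62. The other 28 tested members had a median of -0.04. None was called by edgeR (5 at an unadjusted p under 0.05), and DESeq2 called Trim2 and Trim35. Of these 28, 12 (42.9%) had a positive log2 fold change, near the 49.6% of all tested genes. In 16 the 95% interval lay within 1.5-fold, where 50.0% of all tested genes did. In summed CPM, the interferon-inducible members reached 1533, 1346 and 1279 in MSR1 KO and 983.6, 774.9 and 1067 in MSR1 WT, while the other members stood at 1005, 1001 and 1068 in MSR1 KO and 1003, 1031 and 1044 in MSR1 WT. The first sums did not overlap between the groups and the second sums did.

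Trim30a, whose protein restrains NF-κB signalling by removing TAB2 and TAB3, had the highest mean CPM of the members in each group. Trim25 was higher in replicate 1 of MSR1 KO (418 CPM) and of MSR1 WT (262 CPM). The level of Trim30a was 367, 369 and 356 CPM in MSR1 KO and 214, 190 and 288 CPM in MSR1 WT. The groups did not overlap, and MSR1 WT replicate 3 lay closest to the MSR1 KO libraries. The log2 fold change was 0.66 (SE 0.14, edgeR adjusted p = 0.0382). Trim34a, a close relative of the retrovirus restriction factor TRIM5, had 89.9, 84.3 and 100 CPM in MSR1 KO against 53.2, 42.0 and 67.4 CPM in MSR1 WT. Its log2 fold change was 0.76 (SE 0.16, edgeR adjusted p = 0.0387), again with separate groups and MSR1 WT replicate 3 the highest of its group. Trim30c had 36.3, 26.0 and 28.0 CPM in MSR1 KO and 17.1, 13.7 and 20.3 CPM in MSR1 WT. It had the largest log2 fold change of the 6 that rose, 0.82 (SE 0.18, edgeR adjusted p = 0.0393).

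Trim21, the cytosolic antibody receptor that marks antibody-coated viruses for destruction, lies on chromosome 7 outside the large TRIM cluster. It had 57.9, 62.5 and 51.3 CPM in MSR1 KO and 37.3, 32.8 and 40.5 CPM in MSR1 WT, with a log2 fold change of 0.64 (SE 0.11) and the lowest adjusted p of the family (edgeR, 0.0234). Trim12c, a rodent relative of primate TRIM5, had 63.4, 70.1 and 56.4 CPM against 42.3, 40.1 and 48.7 CPM, a log2 fold change of 0.53 (SE 0.11, edgeR adjusted p = 0.0353). Trim14 on chromosome 4, which lacks a RING domain and acts as an adaptor of RNA and DNA sensing, had 91.5, 93.6 and 85.4 CPM against 60.03, 61.3 and 71.9 CPM. Its log2 fold change was 0.49 (SE 0.09, edgeR adjusted p = 0.0272). In all 6 genes every MSR1 KO library lay above every MSR1 WT library.

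Which of these 6 genes kept an adjusted p under 0.05 depended on the libraries in the fit. Without MSR1 KO replicate 1, MSR1 KO replicate 2 or MSR1 WT replicate 2 none of them kept an adjusted p under 0.05 (edgeR), when 0.250%, 0.574% and 0.369% of all tested genes were called higher, although all 6 had an unadjusted p under 0.05 in each of these fits. Without MSR1 KO replicate 3 Trim12c and Trim21 kept it, without MSR1 WT replicate 1 only Trim26, which is not one of the 6, passed, and without MSR1 WT replicate 3 all 6 kept it and Trim30d joined them. Their log2 fold changes stayed positive whichever library was left out, from 0.44 to 0.57 in Trim14 and from 0.54 to 0.85 in Trim30a.

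**Figure D3:**
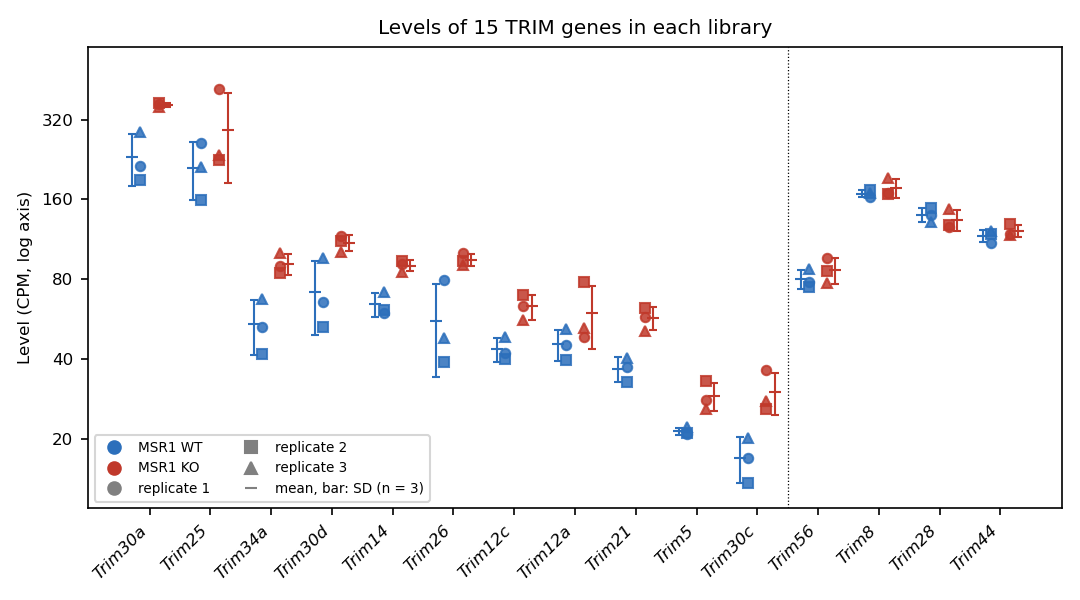
CPM on a log axis of 15 TRIM genes in each MSR1 WT (blue) and MSR1 KO (red) library, with the mean and SD (n = 3) beside the points. The 11 genes left of the dotted line are known as interferon-inducible, and of these only Trim25 and Trim12a overlap between groups, while Trim56, known as inducible too, and Trim8, Trim28 and Trim44 to the right of it overlap.

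A second set of interferon-inducible members was higher without an adjusted p under 0.05. Trim30b had 10.8, 5.05 and 10.2 CPM in MSR1 KO and 4.07, 2.34 and 5.54 CPM in MSR1 WT, a log2 fold change of 1.12 (SE 0.37, edgeR adjusted p = 0.138), and MSR1 KO replicate 2 lay below MSR1 WT replicate 3. Trim34b had 3.42, 2.26 and 3.33 CPM against 1.43, 1.35 and 1.82 CPM (log2 fold change 0.97, edgeR adjusted p = 0.0798), with separate groups. Trim26, which has been linked to the breakdown of IRF3, had 101, 93.6 and 90.3 CPM against 79.8, 39.1 and 48.2 CPM, with a log2 fold change of 0.77 (edgeR adjusted p = 0.108). MSR1 WT replicate 1 stood above the other MSR1 WT libraries for Trim26, and without it the log2 fold change was 1.12. Trim30d had 116, 112 and 101 CPM against 65.6, 52.9 and 96.5 CPM (log2 fold change 0.62, edgeR adjusted p = 0.127), and MSR1 WT replicate 3 stood close to the MSR1 KO libraries. These 4 genes were DEGs by the study's definition. Trim5 had 28.1, 33.1 and 26.1 CPM against 20.9, 21.1 and 22.2 CPM, a log2 fold change of 0.44 (edgeR adjusted p = 0.0587).

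Trim25, the ligase that activates the RNA sensor RIG-I, was not resolved. It had 418, 226 and 235 CPM in MSR1 KO and 262, 159 and 212 CPM in MSR1 WT, and the groups overlapped because MSR1 WT replicate 1 lay above 2 of the MSR1 KO libraries. The log2 fold change was 0.47 with a 95% interval of -0.12 to 1.07, and without MSR1 KO replicate 1 it was 0.13. Trim12a had 48.4, 78.2 and 52.6 CPM against 45.1, 39.9 and 52.1 CPM, a log2 fold change of 0.39 that fell to 0.15 without MSR1 KO replicate 2. Trim6, which builds free ubiquitin chains for the kinase IKKε, had a log2 fold change of 0.27 (95% interval -0.25 to 0.79). Trim56, a ligase of the STING and TRIF pathways, had 96.5, 85.9 and 77.2 CPM against 78.2, 74.9 and 87.2 CPM, and of the 15 it was the 1 gene whose interval lay within 1.5-fold (log2 fold change 0.11, 95% interval -0.12 to 0.35). The remaining listed members, Trim38 and Trim69, had at most 8 counts in any library and were not tested.

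A run of 10 members lies on chromosome 7, in the order Trim6, Trim34a, Trim5, Trim12a, Trim34b, Trim12c, Trim30b, Trim30c, Trim30a and Trim30d, at chr7:104218793-104507849 (289.1 kb, GRCm38). All 10 had a positive log2 fold change, with a median of 0.64, a lowest value of 0.27 in Trim6 and a highest of 1.12 in Trim30b. Of these 10, 4 rose at an adjusted p under 0.05 (all tested genes 2.25%) and 6 were higher DEGs (all tested genes 3.59%). In 7 all MSR1 KO libraries lay above all MSR1 WT libraries (all tested genes 12.1%). All 10 are on the interferon-inducible list, so these are genes already counted there. Of the 8 other annotated genes between them, 3 were tested and none had an adjusted p under 0.05 (edgeR). AC123830.1, an antisense gene that overlaps Trim34a, was a DEG in the same direction, with 500, 629 and 978 counts in MSR1 KO against 353, 346 and 517 counts (log2 fold change 0.84, edgeR adjusted p = 0.0835). The others were Gm15133 (log2 fold change 0.94, edgeR adjusted p = 0.273) and Gm16464, a gene inside Trim30d, with -0.02 (95% interval from edgeR -0.81 to 0.78).

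**Figure D4:**
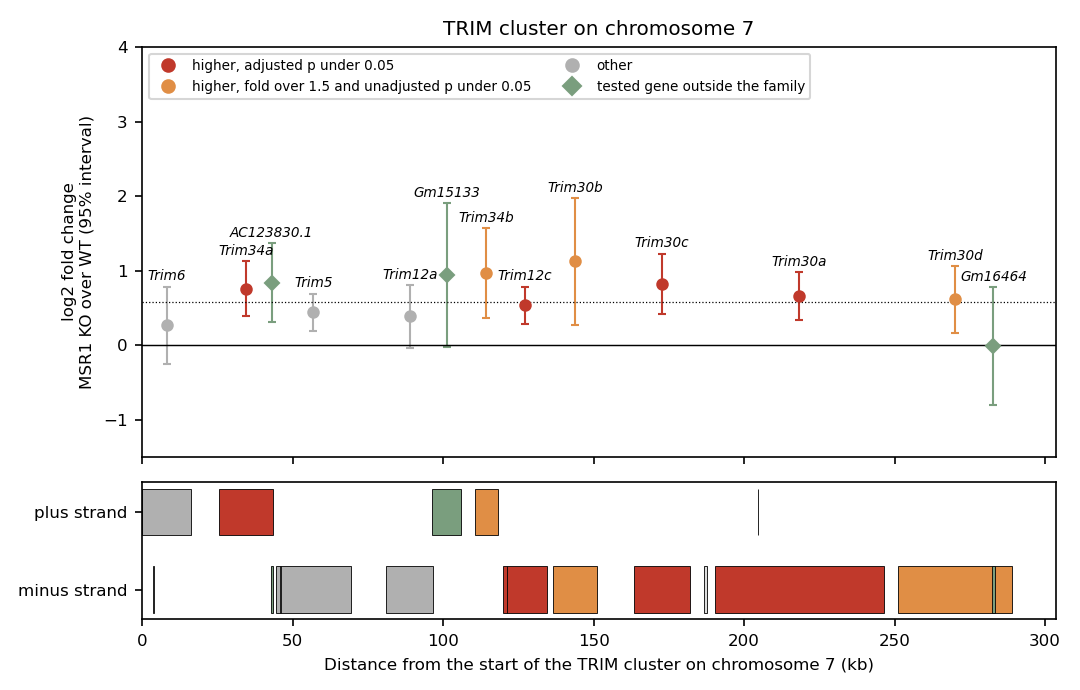
Upper panel, log2 fold change of MSR1 KO over MSR1 WT with 95% intervals (edgeR, n = 3 per group) for the tested genes of the TRIM cluster on chromosome 7, by distance in kb from its start, and lower panel, the extent and strand of each annotated gene. All 10 TRIM genes lie above 0, and Gm16464, inside Trim30d, lies at -0.02.

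Some of these genes share sequence, so reads may be split between them or counted for a neighbour, and the strand setting of the counting is not given in the sources used here. Of the 100-base stretches of its exons, Trim34a shared 39.0% with Trim34b or with AC123830.1, the antisense gene that overlaps it (named Gm47248 in GENCODE), and Trim34b shared 30.5% with Trim34a. Trim5 shared 11.7%, mainly with the Trim12 genes, and Trim30a and Trim30d shared 4.41% and 4.57% with each other. Trim14 overlapped antisense genes: Nans over 31.3% of its exon bases, with a log2 fold change of -0.01, and Gm16731 over 3.76%, which itself rose (log2 fold change 0.58, edgeR adjusted p = 0.0347). No 100-base stretch of Trim30b or Trim30c was shared.

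The ISRE shown above was set beside these changes. Of the 9 members with a promoter that rose or were DEGs in that direction, 6 held the core (Trim12c, Trim21, Trim26, Trim30a, Trim30d and Trim34a) and 3 did not (Trim30b, Trim30c and Trim34b). Of the 11 members with a promoter whose interval lay within 1.5-fold, none held it, which is little different from the 3.99% of all genes. The median log2 fold change was 0.62 over the 9 members with the core and 0.09 over the 24 tested members without it. Over all tested genes with a promoter, 16.2% of 444 with the core rose and 1.74% of 10519 without it did. A match describes the letters in the window and not a bound site.

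To see whether the family moved with the interferon response, 25 interferon-response genes outside the family were taken from a list written with their change known. Of these, 23 rose at an adjusted p under 0.05 (all tested genes 2.25%) and none fell, and the median log2 fold change was 1.26. In all 25 every MSR1 KO library lay above every MSR1 WT library (all tested genes 12.1%). Examples were Ifi44 (log2 fold change 1.80), Zbp1 (1.63) and Ifit2 (1.54). Their mean log2 CPM was 7.27, 7.27 and 7.13 in MSR1 KO and 5.87, 5.66 and 6.48 in MSR1 WT, and that of the 15 interferon-inducible TRIM genes was 5.70, 5.53 and 5.54 against 4.99, 4.76 and 5.18. In both lists MSR1 WT replicate 3 was the highest and MSR1 WT replicate 2 the lowest of the MSR1 WT libraries. This order, replicate 3 over 1 over 2, was seen in 23 of the 25 interferon-response genes and in 10 of the 15 TRIM genes, namely Trim12a, Trim12c, Trim21, Trim30a, Trim30b, Trim30c, Trim30d, Trim34a, Trim34b and Trim56. It was seen in 4 of the other 28 tested members (14.3%) and in 17.4% of all tested genes. Within MSR1 KO, 4 of the 6 TRIM genes that rose were highest in replicate 2, 1 in replicate 1 and 1 in replicate 3, whereas the interferon-response genes were highest in replicate 1 in 11 cases, in replicate 2 in 8 and in replicate 3 in 6.

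The interferon genes were at or near 0 in both groups. Ifna1, Ifna2, Ifna4, Ifna5, Ifnl2 and Ifnl3 had no count in any library, which allows up to 3 counts per library, and Ifnb1 had 8, 6 and 0 counts in MSR1 KO and 0, 0 and 4 in MSR1 WT. The receptor genes Ifnar1, Ifnar2, Ifngr1 and Ifngr2 all had a 95% interval within 1.5-fold, with log2 fold changes of -0.09 to 0.24.

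Some members held their level (39.5%, all tested genes 50.0%). Beside the 17 members held within 1.5-fold, 20 were neither called nor held. Those held included the transcriptional corepressor Trim28, at 126, 128 and 147 CPM in MSR1 KO and 140, 148 and 131 CPM in MSR1 WT (log2 fold change -0.06, 95% interval -0.26 to 0.14). They included its relatives Trim24 (0.11) and Trim33 (-0.02). Trim8, a regulator of NF-κB and JAK-STAT signalling, had 170, 167 and 193 CPM against 164, 173 and 169 CPM, a log2 fold change of 0.07. Trim44, which carries a ubiquitin-protease-type zinc finger in place of a RING, had a log2 fold change of 0.06, and Trim65, a ligase of the RNA sensor MDA5, had 0.00 (95% interval -0.21 to 0.21).

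The 2 tested members that were DEGs lower in MSR1 KO were scarce. Their share of 4.65% lay near the 5.05% of all tested genes. Trim2, an NHL-repeat ligase best known in neurons, had 2.09, 2.24 and 1.68 CPM in MSR1 KO and 3.69, 3.29 and 3.80 CPM in MSR1 WT, a log2 fold change of -0.84 (edgeR adjusted p = 0.0625) with separate groups. Trim66, a chromatin protein of the family, had 6, 20 and 9 counts against 37, 52 and 24 counts, a log2 fold change of -1.57 (95% interval -2.85 to -0.29, edgeR adjusted p = 0.17), and ranged between -2.23 and -1.30 with each library left out. Both were DEGs by the study's definition. Trim35, which has been linked to the breakdown of IRF7, was abundant and lower but not a DEG. It had 85.9, 83.3 and 89.6 CPM against 101, 105 and 106 CPM, with separate groups and a log2 fold change of -0.27 (SE 0.07, edgeR adjusted p = 0.0671) whose 95% interval of -0.43 to -0.11 lay within 1.5-fold. In 8 tested members (18.6%) all MSR1 KO libraries lay below all MSR1 WT libraries, against 13.4% of all tested genes. These were Trim2, Trim7, Trim13, Trim23, Trim35, Trim37, Trim59 and Trim66. Trim23 and Trim37 had means of 24.0 and 22.6 CPM in MSR1 WT.

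Levels between members were compared per kb of merged exon length (RPKM). Trim30a had the highest mean, at 88.6 ± 1.64 RPKM in MSR1 KO and 56.1 ± 12.5 in MSR1 WT (SD, n = 3). In MSR1 WT its lead over the next gene lay within its own SD. Trim25 followed in MSR1 KO, at 50.9 ± 18.8 RPKM, and Trim8 in MSR1 WT, at 45.4 ± 1.27 RPKM. The levels of these 2 genes did not differ beyond their spread within either group, at 50.9 ± 18.8 against 47.6 ± 3.77 RPKM in MSR1 KO and 36.7 ± 8.97 against 45.4 ± 1.27 in MSR1 WT (SD, n = 3). The next by the mean over all libraries were Trim28, Trim34a, Trim41, Trim30d, Trim44, Trim35 and Trim14, and the same 10 genes led when the longest transcript was used as the length. Of these 10, Trim30a, Trim34a and Trim14 rose and Trim8, Trim28, Trim41, Trim44 and Trim35 were held within 1.5-fold. At the other end, 15 members had no count in any library, among them the muscle genes Trim54, Trim55 and Trim63 and the stem cell gene Trim71. The 5 muscle markers summed to 0.223 to 1.53 CPM in MSR1 KO and 0.631 to 0.822 in MSR1 WT, with Myh4 at 0 and Des the 1 with enough counts to be tested.

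**Figure D5:**
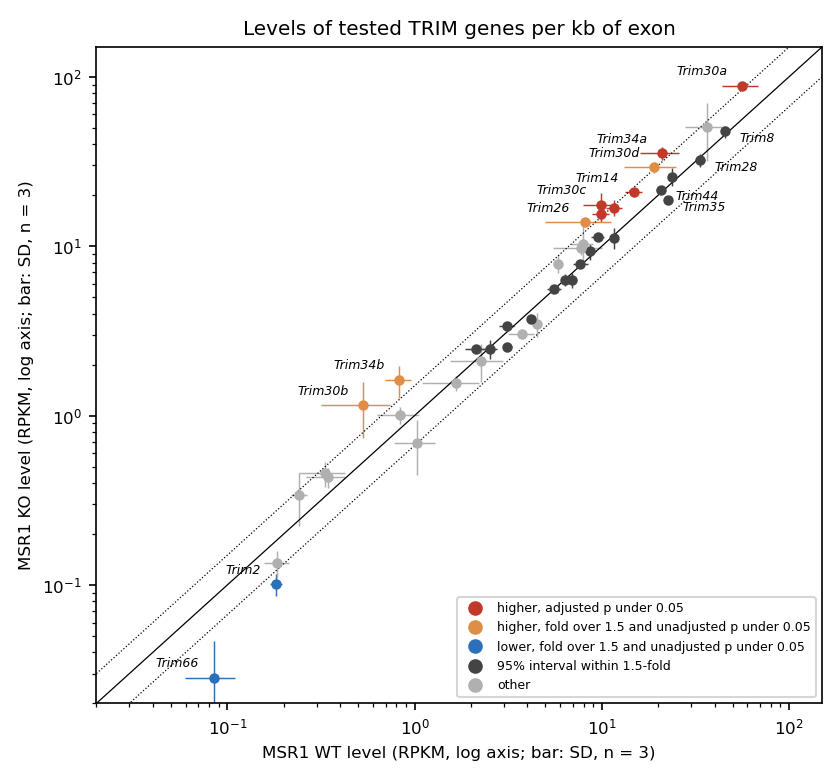
Mean RPKM of the tested TRIM genes in MSR1 WT (x) and MSR1 KO (y), on log axes with SD bars (n = 3), the line of equal level and dotted lines at 1.5-fold. Trim30a, at 88.6 RPKM in MSR1 KO and 56.1 in MSR1 WT, is at the upper right, and Trim66, the lowest, is at the lower left.

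A further 10 members had counts but were not tested. Trim29 was at 0 in each MSR1 KO library and at 8, 9 and 8 counts in MSR1 WT, and it was a DEG, lower in MSR1 KO, by DESeq2 and by edgeR with no filter on low counts. Its level was at least 2.58-fold higher in MSR1 WT when each MSR1 KO library is set to the floor of 3 counts. Trim17 had 21, 8 and 10 counts in MSR1 KO and 6, 22 and 4 in MSR1 WT, which overlapped. The rest had at most 13 counts in any library, with overlapping groups.

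By C-terminal domain, the PRY-SPRY class was the largest. Of 36 members with it, 24 were tested and 5 rose (Trim12c, Trim14, Trim21, Trim30a and Trim34a), against 2.25% of all tested genes. In 18 the log2 fold change was positive (all tested genes 49.6%), and the median was 0.39. All 5 are on the interferon-inducible list, and the part of the domain apart from that list was not tested. The class also held genes with flat levels, and 7 of the 24 were held within 1.5-fold (all tested genes 50.0%). All 3 tested members with no further C-terminal domain (Trim8, Trim44 and Trim56) were held, as were 3 of the 4 PHD-bromodomain members, the exception being Trim66. Of the 3 tested NHL-repeat members, Trim3 and Trim32 were held and Trim2 was lower. Trim37, the MATH-domain member, and Trim23, which carries an ARF GTPase domain, were held too, with log2 fold changes of -0.30 and -0.17.

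Of 8 TRIM proteins with other gene symbols, 6 were tested. Pml (TRIM19), the scaffold of PML nuclear bodies and itself known as interferon-inducible, had 6062, 5462 and 6339 counts in MSR1 KO and 2649, 4746 and 3792 counts in MSR1 WT, and rose (log2 fold change 0.79, edgeR adjusted p = 0.0366). Mid2 (TRIM1), a microtubule-bound ligase, had 71, 65 and 82 counts against 145, 162 and 147 counts and fell by 0.96 on the log2 scale (edgeR adjusted p = 0.0363). Mefv (TRIM20, pyrin) had a log2 fold change of 0.03.

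Among 19 sensing and signalling partners of TRIM proteins, 6 rose (all tested genes 2.25%) and none fell at an adjusted p under 0.05 (edgeR), with a median log2 fold change of 0.15. The 6 were the RNA sensors Ddx58 (RIG-I, log2 fold change 0.68) and Ifih1 (MDA5, 0.71), the DNA-sensing adaptor Tmem173 (STING, 0.52), the transcription factor Irf7 (1.35), the Toll-like receptor adaptor Myd88 (0.45) and the peptidoglycan sensor Nod2 (0.72). Ddx58, Ifih1 and Irf7 are also in the interferon-response list. Of the 19, 10 were held within 1.5-fold (all tested genes 50.0%), including Mavs (0.01), the adaptor below RIG-I and MDA5, and Traf6 (0.09).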

How the data were processed

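Poly(A) RNA-seq libraries were made from MSR1 KO and MSR1 WT macrophages (n = 3 each). The authors deposited raw counts per gene and library, and their deposited file also has normalized signal columns (each count over its library's size factor) and columns of their own comparison (log2 fold change, p-value and adjusted p-value), none of which was used. The methods name TopHat, and the submitters' processing notes name fastp 0.17.1, HISAT2 2.1.0, DESeq2 1.18.1 and R 3.4.3; the counting program, strand setting and genome build are not given in the sources used here. No value column was left unmapped. Of 52403 gene identifiers shared with GENCODE vM21 (GRCm38), 49909 had the same position, as did 66 of 68 members.

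The quasi-likelihood test of edgeR 4.0.16 (R 4.3.3; TMM scaling, filterByExpr) was run over all genes. The standard error of a log2 fold change was its size divided by √F. DESeq2 1.42.0 was an alternative. The scripts were tested on simulated counts. RPKM used merged exon lengths. Every member could be named, and outside the family a selection of the genes of each list. Replicates of a group differed by more than sampling noise. Where nothing says that replicates came from separate mice, p-values measure only the spread between these libraries. Floors cover counting error only. The members, lists and tests were chosen with earlier results of these data known.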

Additional observations from a re-analysis of the deposited data

How the results depend on the processing

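The count of 6 members that rose was 11 with DESeq2 (adding Trim26, Trim30b, Trim30d, Trim34b and Trim5), 2 with no filter on low counts, and 0 to 7 with each library left out in turn. It was 6, with the same genes, under DESeq2 size factors, library size alone or at least 10 counts in every library. The count of members that fell was 0, but 2 with DESeq2 (Trim2 and Trim35) and 1 with library size alone (Trim35). DEGs numbered 8 higher (4 to 9 with each library left out, 4 without MSR1 WT replicate 2) and 2 lower (1 with at least 10 counts in every library, which drops Trim66 from the test, 3 with DESeq2 or no filter on low counts, which add Trim29, and 1 to 2 with each library left out). Where not stated, the cause was not tested. With the replicate number as a block 1 member rose (Trim34a), and same-numbered libraries did not deviate together (r = -0.03, 0.02 and -0.005), so the numbers were not read as a pairing. The median log2 fold change of the family stayed between 0.08 and 0.19. Over 515 values of single genes under the alternatives, 16 uncalled ones changed sign, 37 lost and 10 gained an adjusted p under 0.05, and no called value changed direction. The median of all genes shifted by at most 0.0319.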

Other observations

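Ubiquitin ligases outside the TRIM family and the enzymes that feed them were described in the same way. The 18 other ubiquitin ligases of immune signalling were mostly RING ligases but with the HECT ligases Herc6, Itch and Nedd4. At an adjusted p under 0.05 (edgeR) 5 rose (all tested genes 2.25%) and 1 fell (all tested genes 2.66%). Their median log2 fold change was 0.12. Herc6, the mouse ligase for ISG15, had 3218, 4287 and 3321 counts in MSR1 KO and 1650, 1572 and 2088 in MSR1 WT (log2 fold change 1.12). Dtx3l (0.79), Rnf31 (0.55), a subunit of the linear ubiquitin ligase, Rnf114 (0.48) and Peli1 (0.37) rose as well. Rnf128, known as GRAIL, had 1800, 1786 and 2641 counts in MSR1 KO and 4677, 5448 and 5050 in MSR1 WT and fell by 1.21 on the log2 scale. Of 18 ubiquitin and conjugating enzyme genes, 13 were held within 1.5-fold (all tested genes 50.0%). Uba7, the activating enzyme of ISG15, was the 1 that rose (log2 fold change 0.69, edgeR adjusted p = 0.0496).

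In each library fewer genes were listed at 3 counts (335 to 415) than at 4 counts (771 to 879), and all 37 mitochondrial genes of the table had no count in any library. Values of the scarcest TRIM genes with a count, such as Trim38 and Trim67 with 4 counts in total each, come from this low range. Trim29 (0 to 9 counts) and Trim66 (6 to 52 counts) had no value at 3 or 4 counts, and any effect on them was not tested.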
